A study of Homo sapiens with 6 samples.

Results

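The transcripts described here come from 10 genes that set the shape of mitochondria, namely OPA1, MFN1, MFN2, DNM1L, MFF, FIS1, IMMT, CHCHD3, CHCHD6 and PHB2. They were picked by symbol among the 19845 gene symbols of the count table, by a rule that uses no measured value, though with earlier results of these data known. All 10 were found and passed the filter on low counts. RNA was sequenced from 6 cultures of Molm13 cells, an established human acute myeloid leukemia line with a rearranged MLL gene, which stably expressed the Cas9 nuclease. In 3 cultures (sgCtrl #1 to #3) the cells received guide RNAs against non-essential sequences, and in 3 (sgCOX4I1 #1 to #3) guides against the coding region of COX4I1, each culture with a different guide. By the labels, both groups carried Cas9 and a lentiviral guide vector and were selected with puromycin. Each sgCOX4I1 culture is a pool of edited cells, not a clone, so unedited and partly edited cells are read together with knockout cells, and the spread between libraries includes differences between guides.

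Mitochondria constantly fuse and divide. Mitofusins join the outer membranes of neighbouring mitochondria and OPA1 joins the inner membranes, whereas the dynamin DRP1, encoded by DNM1L, is recruited by receptors such as MFF to constrict and divide them. The inner membrane folds into cristae, whose narrow necks are held by the MICOS complex together with OPA1, and the prohibitin ring protects OPA1 from cleavage by inner membrane proteases. Cristae carry the respiratory complexes and hold cytochrome c, which leaves through the widened necks in apoptosis.

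The counts per library totalled between 17241014 and 30861943, and levels are given as CPM, a gene's counts scaled to the TMM-normalized total of its library. Since each group is 3 cultures with 3 guides, p-values measure the spread between these libraries and nothing wider. The targeted gene, COX4I1, which encodes a subunit of respiratory Complex IV, was at 513, 502 and 463 CPM in sgCtrl #1, #2 and #3, and at 132, 378 and 133 CPM in sgCOX4I1 #1, #2 and #3. Every sgCOX4I1 library lay below every sgCtrl library (p = 0.1 by a two-sided exact permutation test, which with 3 against 3 can give no smaller value), with sgCOX4I1 #2 retaining 76.7% of the sgCtrl mean. Adjusted p-values here and below are those of the edgeR quasi-likelihood F test after Benjamini-Hochberg correction over all tested genes, and SE is the standard error of a log2 fold change. COX4I1 differed by -1.21 on the log2 scale (SE 0.29, adjusted p = 0.0512, edgeR), and by -1.89 without sgCOX4I1 #2 (adjusted p = 3.37e-06, edgeR). The adjusted p was 0.272 without sgCtrl #2 and 0.125 without sgCOX4I1 #3 (edgeR), and 0.234 by DESeq2 on all 6 libraries. Of 12 alternative fits, 6 put COX4I1 under 0.05. All 8 myeloid leukemia markers examined were at 1 CPM or more on average in both groups. Of 10 genes listed here as markers of other cell types, 2 were, KRT18 (listed as epithelial) and PECAM1 (listed as endothelial). Whether these 2 came from the leukemia cells themselves was not tested, so they are not read as a sign of other cells. CD3D, HBB and EPCAM had 0 counts in every library. The summed level of the myeloid list was 2374 to 3298 CPM in sgCtrl and 3049 to 4139 CPM in sgCOX4I1, and without LYZ it was 1187 to 1225 CPM and 1023 to 1035 CPM. Within it the log2 fold change was 0.77 for LYZ, a secreted lysozyme (adjusted p = 0.0534, edgeR), and -1.06 for MPO, a granule enzyme that fell (adjusted p = 1.59e-05, edgeR). Of the 8 markers 6 had a log2 fold change below 0, among them FLT3 (-0.23, with the groups apart) and HOXA9 (-0.21), and MPO was the 1 that passed the test. The summed level of the other list was 182 to 206 CPM in sgCtrl and 195 to 227 CPM in sgCOX4I1. Most of it was the 1 gene PECAM1, at 178 and 201 CPM on average, whose groups overlapped. The part of the shift in the myeloid list in the values below was not tested.

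To ask whether the loss of COX4I1 altered the transcripts that shape mitochondria, each member was read from a test across all 11861 genes that passed the filter. None of the 10 members passed an adjusted p of 0.05 in either direction by edgeR, by DESeq2 or by limma-voom, where 2.08% of all tested genes did by edgeR. These fits did not use the library number. With that number as a block in edgeR, 1 member passed, OPA1 (adjusted p = 0.0149), beside 1408 of the 11861 genes. Without the block, at an unadjusted p under 0.05 in edgeR, there was 1 member, OPA1, against 17.3% of all tested genes. The libraries of the groups did not overlap for 2 members, OPA1 and IMMT, both higher in sgCOX4I1, beside 21.6% of all tested genes in either direction with 11.2% higher and 10.4% lower. Of the 10 log2 fold changes 7 were above 0, compared with 49.4% of all tested genes, and their median was 0.048, compared with -0.0023 over all tested genes. With both directions pooled, the members' shares of 10% at the unadjusted p and 20% without overlap were no larger than those of the whole table. In the higher direction alone the 20%, which is 2 genes of 10, stood beside 11.2%. The 95% intervals of the edgeR fit, each for 1 gene, are for the difference between pooled cultures, in which unedited cells are included. For the 9 members other than CHCHD6 they ran from -21.4% to 30.6% of the sgCtrl level. They do not bound a change in the edited cells alone. In RNA from whole cultures, fewer cells of a type and less RNA per cell cannot be told apart.

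**Figure D1:**
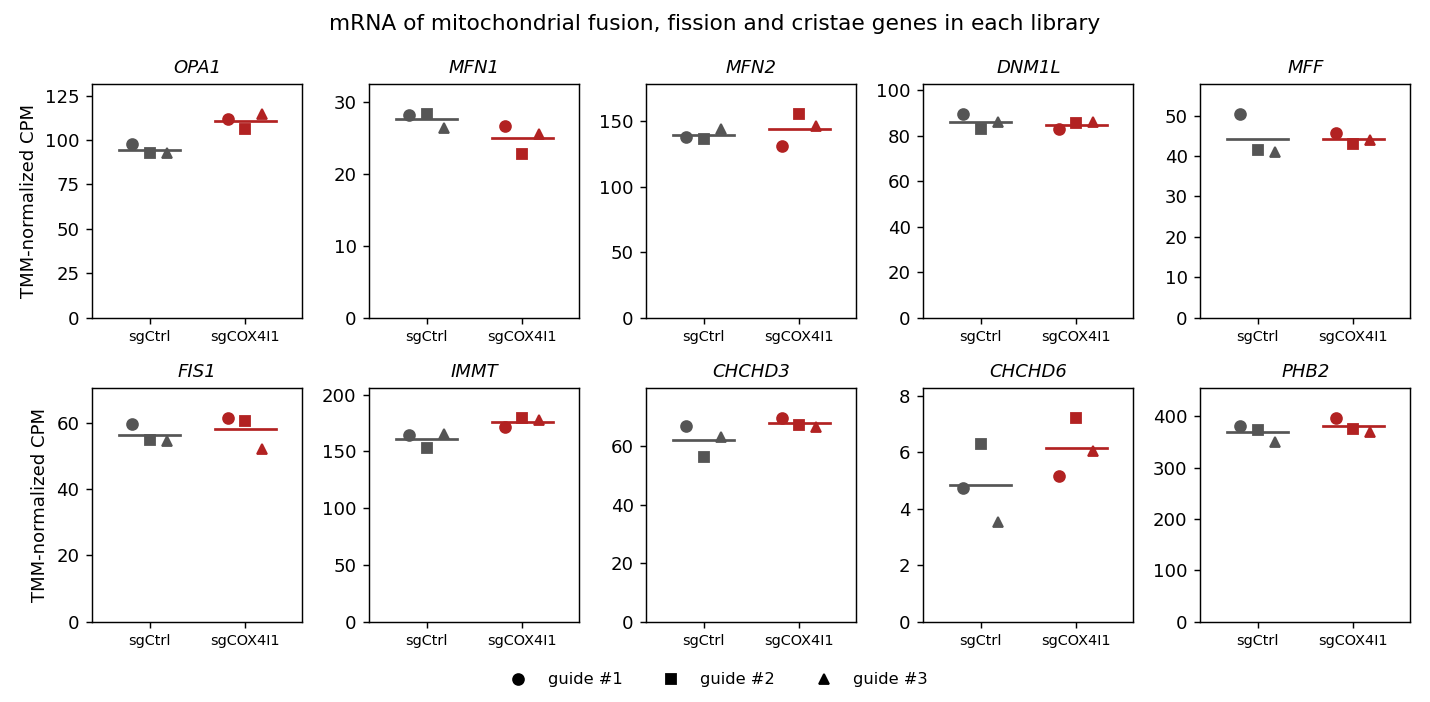
TMM-normalized CPM (vertical axes, from 0) of the 10 genes in each of the 3 sgCtrl and 3 sgCOX4I1 libraries, with circles, squares and triangles for guides #1, #2 and #3 and a bar at each group mean. The sgCOX4I1 points lie above all sgCtrl points for OPA1 and IMMT only, and elsewhere the groups overlap.

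OPA1, the dynamin-like GTPase that fuses inner membranes and tightens cristae, was the member with the clearest difference. In GRCh38 the gene spans bases 193593144 to 193697811 of chromosome 3 (plus strand), with 31 exons in its canonical transcript. Its level was 97.7, 92.9 and 92.9 CPM in sgCtrl #1, #2 and #3, and it was 112, 106 and 115 CPM in sgCOX4I1 #1, #2 and #3. All 3 sgCOX4I1 libraries were above the highest sgCtrl library. The lowest of them was sgCOX4I1 #2, the library with the most COX4I1 mRNA left, in which IMMT was highest. On the log2 scale OPA1 differed by 0.23 (SE 0.071, adjusted p = 0.112, edgeR), which is 17.4% with a 95% interval from 5.58% to 30.6%, and its unadjusted p of 0.00599 from edgeR ranked 636 among the 11861 genes. OPA1 did not pass the test. An antisense gene shares 2.30% of its exonic bases, and counts per gene do not separate the splice forms of OPA1 or say anything of the cleavage of its protein into long and short forms.

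The 250 bases before the RefSeq start of OPA1 and of IMMT are shown because these were the members whose groups did not overlap. Capitals mark matches to the NRF1 motif (GCGCA and GCGC with any base between them) or to the ETS core CCGGAAG, each searched on both strands. NRF1 is a regulator of nuclear genes for mitochondrial proteins, and the ETS family includes GABP, another such regulator. The OPA1 window lies at chr3:193592958-193593207 on the plus strand and the IMMT window at chr2:86195463-86195712 on the minus strand, both in GRCh38.p14 and written 5′ to 3′.
OPA1: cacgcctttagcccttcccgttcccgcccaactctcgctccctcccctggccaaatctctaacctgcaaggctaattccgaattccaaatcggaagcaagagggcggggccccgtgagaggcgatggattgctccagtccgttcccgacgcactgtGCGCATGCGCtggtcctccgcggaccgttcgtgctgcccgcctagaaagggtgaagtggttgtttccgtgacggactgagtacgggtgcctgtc
IMMT: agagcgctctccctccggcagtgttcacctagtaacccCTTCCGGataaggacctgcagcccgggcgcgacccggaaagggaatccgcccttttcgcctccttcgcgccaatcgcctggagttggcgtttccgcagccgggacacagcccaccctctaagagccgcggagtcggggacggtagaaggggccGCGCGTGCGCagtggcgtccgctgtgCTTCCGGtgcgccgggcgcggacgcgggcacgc
The NRF1 motif, which reads the same on both strands of the OPA1 window, begins 94 bases before the start in OPA1 and 59 bases before it in IMMT. It was found in the windows of these 2 members of 10, and in 5.05% of 34788 distinct windows of the same length. A member counted if any of its windows held a match, and MFF and PHB2 had more than 1, whereas the share is per window. G and C made up 61.6% of the OPA1 window and 69.6% of the IMMT window, beside a median of 58% over all windows. The ETS core was found for 4 members, IMMT, MFN1, FIS1 and PHB2, and in 8.50% of all windows. Neither AAGATGGCG, the core of a YY1 site, nor TGATGNAA, a composite C/EBP and ATF site, was found before any of the 10 genes (0.655% and 3.16% of all windows). A match is a description of the letters and not a measured site. The motifs were chosen after the expression values were seen, and the windows compared were not limited to expressed or mitochondrial genes. Whether a match goes with a difference between the groups was not tested.

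The mitofusins, the GTPases of outer membrane fusion, had differences of opposite sign, and neither passed the test. MFN1, on chromosome 3 from 179347709 to 179394936, was at 28.1, 28.3 and 26.4 CPM in sgCtrl #1, #2 and #3 and at 26.7, 22.8 and 25.5 CPM in sgCOX4I1 #1, #2 and #3. The groups overlapped by sgCOX4I1 #1, which lay just above sgCtrl #3. MFN1 differed by -0.14 on the log2 scale (SE 0.097, 95% interval -0.35 to 0.067, adjusted p = 0.488, edgeR), and by -0.081 without sgCOX4I1 #2. MFN2, on chromosome 1 from 11980181 to 12015211, was at 138, 136 and 144 CPM in sgCtrl and at 131, 155 and 146 CPM in sgCOX4I1, in the same order of guides, so that the sgCOX4I1 libraries held both the lowest and the highest value. The difference was 0.049 on the log2 scale (SE 0.078, 95% interval -0.12 to 0.22). The log2 ratio of MFN1 to MFN2 averaged -2.33 in sgCtrl (SD 0.095, n = 3) and -2.52 in sgCOX4I1 (SD 0.24, n = 3). The groups overlapped in this ratio as well, with sgCOX4I1 #2 the lowest at -2.76 and sgCOX4I1 #1 at -2.29 among the controls.

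The fission genes showed the smallest differences of the members. DNM1L, on chromosome 12 from 32679200 to 32745650, was at 89.5, 83.0 and 86.2 CPM in sgCtrl and at 82.9, 85.4 and 86.1 CPM in sgCOX4I1. Its log2 fold change was -0.025 (SE 0.071), with a 95% interval of -11.6% to 9.34% of the sgCtrl level. MFF, the outer membrane receptor for DRP1, on chromosome 2 from 227325151 to 227357833, was at 50.4, 41.6 and 41.0 CPM in sgCtrl and at 45.7, 43.0 and 44.0 CPM in sgCOX4I1. Here the sgCtrl #1 library stood above the other 5, and the log2 fold change of -0.0013 (SE 0.093) became 0.099 without it. FIS1, a small tail-anchored protein of the outer membrane on chromosome 7 from 101239458 to 101252316, was at 59.8, 54.8 and 54.4 CPM in sgCtrl and at 61.3, 60.6 and 52.0 CPM in sgCOX4I1, with the highest and the lowest value both in sgCOX4I1 (log2 fold change 0.040, SE 0.086). The 95% intervals of MFF and FIS1 were -13.0% to 14.8% and -9.59% to 16.9% of the sgCtrl level. The log2 ratio of OPA1 to DNM1L was 0.13, 0.16 and 0.11 in sgCtrl #1, #2 and #3 and 0.43, 0.32 and 0.41 in sgCOX4I1 #1, #2 and #3, so the groups were apart in this ratio, and most of the difference of 0.25 lay in OPA1.

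The MICOS members were IMMT, which encodes the core subunit MIC60, and CHCHD3 and CHCHD6, which encode its partners MIC19 and MIC25. IMMT, on chromosome 2 from 86143932 to 86195472, was at 165, 153 and 165 CPM in sgCtrl #1, #2 and #3, and at 171, 179 and 177 CPM in sgCOX4I1 #1, #2 and #3. The groups were apart, with sgCtrl #2 the lowest of the 6. The log2 difference was 0.13 (SE 0.070, 95% interval -0.022 to 0.28, adjusted p = 0.372, edgeR), so IMMT did not pass the test. CHCHD3, on chromosome 7 from 132784870 to 133082090, was at 66.9, 56.1 and 63.2 CPM in sgCtrl and at 69.5, 67.3 and 66.6 CPM in sgCOX4I1. It differed by 0.13 on the log2 scale as well (SE 0.082), and by 0.060 without sgCtrl #2. The groups overlapped only by sgCtrl #1. The log2 ratio of CHCHD3 to IMMT averaged -1.37 both in sgCtrl (SD 0.072, n = 3) and in sgCOX4I1 (SD 0.065, n = 3).

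CHCHD6, on chromosome 3 from 126704240 to 126960420, was the rarest member, with 72 to 189 counts per library, against at least 392 for every other member. It was at 4.74, 6.30 and 3.54 CPM in sgCtrl and at 5.17, 7.21 and 6.04 CPM in sgCOX4I1. Its log2 fold change of 0.33 had the largest SE of the 10 (0.22, 95% interval of -8.67% to 74.1% of the sgCtrl level). It was 0.15 without sgCtrl #3, 0.57 without sgCtrl #2 and 0.22 without sgCOX4I1 #2. The sgCtrl libraries alone spread by 28.5% of their mean (SD, n = 3), and the groups overlapped. PHB2, a subunit of the prohibitin ring encoded on chromosome 12 from 6965327 to 6970780, was the most abundant member at 382, 374 and 350 CPM in sgCtrl and at 396, 376 and 370 CPM in sgCOX4I1. The log2 difference was 0.046 (SE 0.073), or 0.011 without sgCtrl #3, and the groups overlapped. A small RNA gene within PHB2 shares 6.39% of its exonic bases. MFF, CHCHD3, MFN1, IMMT and PHB2 have processed or other named pseudogenes, and how reads shared with them were counted is not given in the sources used here.

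**Figure D2:**
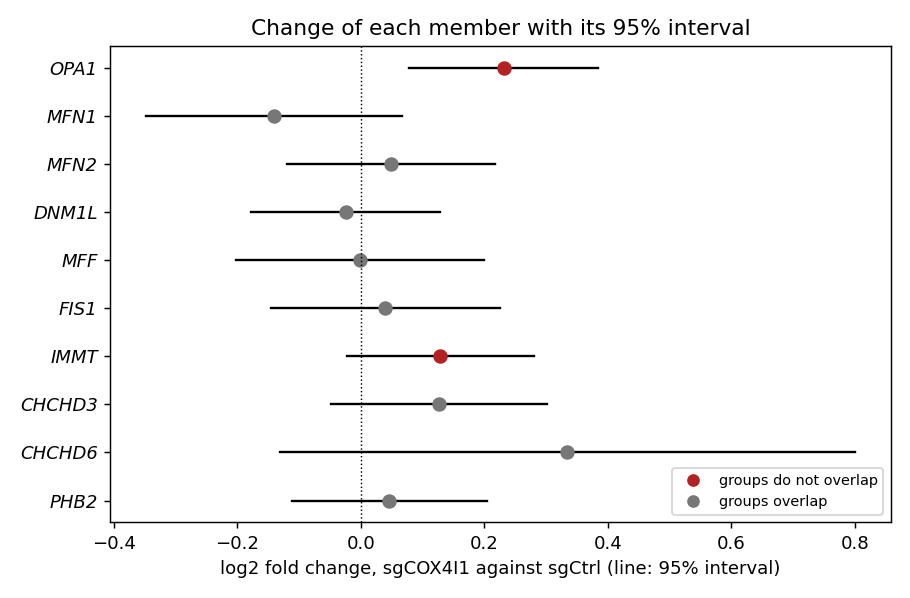
Log2 fold change of each member between sgCOX4I1 and sgCtrl (points) with its 95% interval from the edgeR fit (lines); red points mark genes whose libraries did not overlap between groups. The interval of OPA1, 0.078 to 0.38, is the 1 of 10 that leaves out 0, before adjustment for the number of genes tested, and that of CHCHD6 is the widest.

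Divided by the length of the annotated exons, the members spanned a 49.5-fold range in sgCtrl. PHB2 led at 87.2 ± 3.96 CPM per kilobase (SD, n = 3 libraries), followed by IMMT at 43.6 ± 1.92, FIS1 at 31.5 ± 1.67, CHCHD3 at 18.1 ± 1.59 and MFN2 at 13.6 ± 0.397. DNM1L and OPA1 came next at 10.7 ± 0.404 and 10.5 ± 0.310 CPM per kilobase. They were the only neighbours in the order whose sgCtrl libraries overlapped. MFF at 7.17 ± 0.846, MFN1 at 4.64 ± 0.173 and CHCHD6 at 1.76 ± 0.502 CPM per kilobase closed the order. In sgCOX4I1 OPA1 stood above DNM1L, at 12.3 ± 0.457 against 10.5 ± 0.210 CPM per kilobase, and the order of the other 8 was the same. These levels depend on the length used. Lengths were taken from GENCODE 44, and the annotation used for counting, which is not given in the sources used here, may differ from it. For PHB2 the length was 4226 bases over all annotated exons and 1379 bases in the canonical transcript. Over the canonical transcript alone, an alternative chosen after the data had been seen, FIS1 passed IMMT (64.8 and 59.8 CPM per kilobase in sgCtrl) and MFF passed DNM1L and OPA1 (23.1, 19.1 and 14.7), while PHB2 stayed first and CHCHD6 last among the sgCtrl means. In sgCOX4I1 CHCHD6 lay above MFN1 by that length (6.14 and 4.80 CPM per kilobase), with overlapping sgCtrl libraries. MFN2 was above MFN1 by either length.

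**Figure D3:**
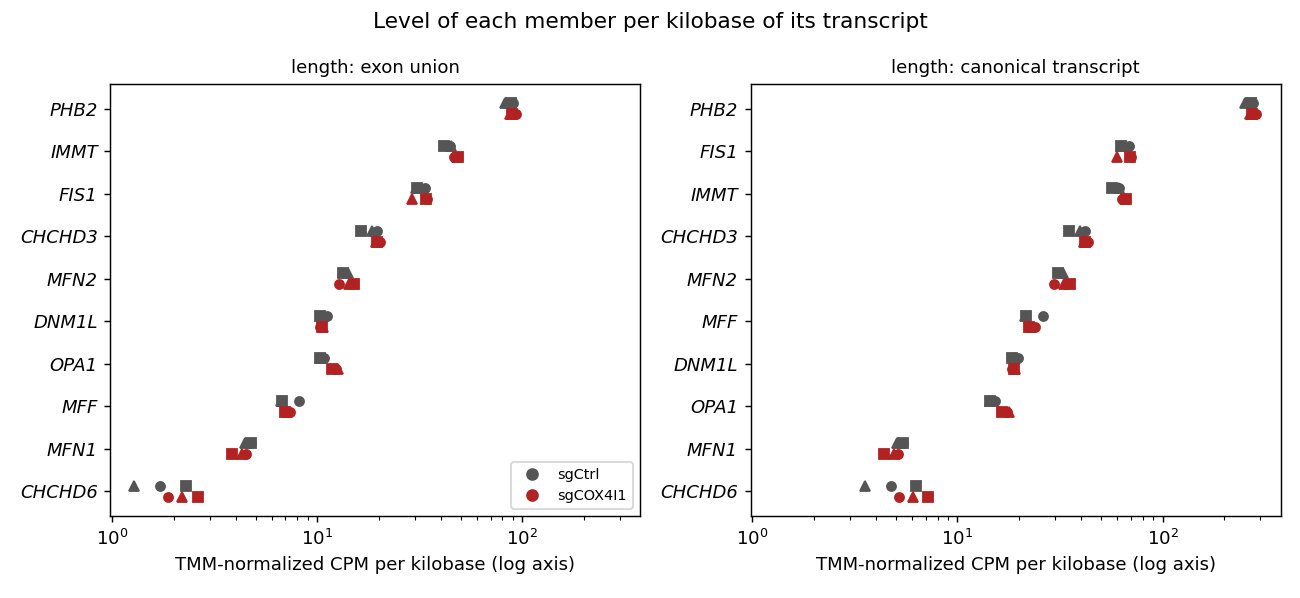
TMM-normalized CPM per kilobase (horizontal log axes) of each member in every sgCtrl (gray) and sgCOX4I1 (red) library, by the length of all annotated exons (left) and of the canonical transcript (right), ordered by the sgCtrl mean. PHB2 is highest and CHCHD6 lowest of the sgCtrl means in both panels, and the middle of the order changes with the length.

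How the members varied across the 6 libraries is given as a description only. The Pearson correlation of log2 CPM between pairs of members, over 6 libraries that share the group difference and their own depth, had a median of 0.15 over 45 pairs. It was highest between IMMT and CHCHD3 (0.83) and between OPA1 and IMMT (0.81), and lowest between MFN1 and MFN2 (-0.83). Among the sgCtrl libraries, #1 held the highest value for 6 of the 10 members and the lowest for none. Neither the correlations nor this count were set beside the same measure over all tested genes. They cannot be read as particular to the members. By Pearson correlation the tested genes most like OPA1 were OTUD6B, MYCBP2 and IREB2, with r of 0.996, 0.996 and 0.991 over the same libraries. OTUD6B encodes a deubiquitinase, MYCBP2 a ubiquitin ligase and IREB2 an iron regulatory protein. In all, 84 of 11860 genes had an r above 0.95 with OPA1.

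Other genes of mitochondrial shape were read from 4 lists, on MICOS and its outer membrane bridge, on prohibitin partners and OPA1-cleaving proteases, on fusion and fission regulators, and on cardiolipin, the lipid of the inner membrane. Of their 45 genes 44 were tested, PLSCR3 having 0 counts in every library. In GENCODE 44 the same-strand gene TMEM256-PLSCR3 shares 76.35% of the exonic bases of PLSCR3, and the part of this overlap in the count of 0 was not tested. By edgeR 1 passed an adjusted p of 0.05, PARL, which was lower, and 0 were higher, beside 1.02% and 1.06% of all tested genes in these directions. Of the 44, the libraries of the groups did not overlap for 6 that were higher and 1 that was lower. Over all tested genes these shares were 11.2% and 10.4%. The median log2 fold change was 0.10 for the 11 MICOS and bridge genes, 0.055 for the 9 partners and proteases, -0.030 for the 16 regulators and -0.0095 for the 8 cardiolipin genes.

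PARL encodes a rhomboid protease of the inner membrane that cleaves PINK1 and other mitochondrial proteins and was linked to the processing of OPA1. In GRCh38 it spans bases 183829271 to 183884933 of chromosome 3 (minus strand). PARL was at 6.21, 5.65 and 6.83 CPM in sgCtrl #1, #2 and #3, and fell to 3.96, 3.43 and 3.04 CPM in sgCOX4I1 #1, #2 and #3. The groups were apart. On the log2 scale PARL differed by -0.85 (SE 0.19, 95% interval -1.25 to -0.45, adjusted p = 0.0347, edgeR), which is -44.4%. The call rested on 59 to 139 counts per library and was lost without sgCtrl #2, sgCtrl #3, sgCOX4I1 #2 or sgCOX4I1 #3, where the adjusted p became 0.145, 0.0781, 0.126 and 0.130 in turn (edgeR), while the log2 fold change stayed between -0.95 and -0.75.
In GENCODE 44 a gene that reads through from PARL into MAP6D1 holds 47.2% of the exonic bases of PARL, and whether the annotation used for counting held it is not given in the sources used here. MAP6D1 itself was lower in every sgCOX4I1 library, at 0.668 ± 0.0788 against 1.01 ± 0.156 CPM (SD, n = 3 libraries each), on 11 to 24 counts, and did not pass the test (adjusted p = 0.410 from edgeR). The part of this overlap in the value of PARL was not tested. The 250 bases before its RefSeq start, shown as those of the 1 gene of these lists that passed, lie on the minus strand at chr3:183884881-183885130 in GRCh38.p14 and hold 1 ETS core (capitals).
PARL: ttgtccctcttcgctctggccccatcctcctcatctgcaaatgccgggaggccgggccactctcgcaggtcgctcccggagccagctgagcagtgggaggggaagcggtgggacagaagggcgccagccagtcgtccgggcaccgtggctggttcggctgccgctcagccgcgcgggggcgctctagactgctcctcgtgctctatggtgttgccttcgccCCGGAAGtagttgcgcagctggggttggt

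The proteases best known for cleaving OPA1 were named for that role, after their values were seen. OMA1, the stress-activated metallopeptidase that makes short OPA1, was at 8.23, 6.68 and 8.40 CPM in sgCtrl and at 6.73, 9.94 and 8.63 CPM in sgCOX4I1, and the groups overlapped (log2 fold change 0.11, SE 0.17). YME1L1, which cleaves OPA1 in resting cells, was at 170 ± 8.51 and 178 ± 3.05 CPM (SD, n = 3 libraries each) with a log2 difference of 0.068 (SE 0.071). PHB, which encodes the other prohibitin, was at 184 ± 12.1 and 191 ± 8.97 CPM, a log2 fold change of 0.055 beside the 0.046 of PHB2. STOML2, a prohibitin-like scaffold that binds cardiolipin, was at 79.4, 74.1 and 69.3 CPM in sgCtrl and at 90.5, 85.9 and 81.1 CPM in sgCOX4I1, with the groups apart. The log2 difference of 0.21 (SE 0.080) did not pass the test (adjusted p = 0.192, edgeR).

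Among MICOS and bridge genes, CHCHD10, an intermembrane space protein, was at 145, 150 and 115 CPM in sgCtrl and at 167, 180 and 150 CPM in sgCOX4I1, just apart (log2 fold change 0.28, SE 0.10, adjusted p = 0.174, edgeR). MTX3, a subunit of the outer membrane sorting machinery, differed by 0.26 on the log2 scale (SE 0.098), and MICOS13, listed as C19orf70, by 0.16 (SE 0.13), a value that became 0.022 without sgCtrl #3, 0.063 without sgCOX4I1 #1 and 0.27 without sgCOX4I1 #3. Among the regulators, MIEF1, a receptor for DRP1, was at 65.6, 69.7 and 71.4 CPM in sgCtrl and at 84.5, 77.4 and 78.3 CPM in sgCOX4I1. The groups of MIEF1 were apart, and its log2 fold change of 0.22 (SE 0.075, adjusted p = 0.156, edgeR) was close in size to that of OPA1. GDAP1 and PLD6, outer membrane proteins that affect fission and fusion, had log2 fold changes of 0.45 (SE 0.18) and 0.28 (SE 0.12) and did not pass. The groups were apart for GDAP1, on 78 to 212 counts per library, and for MTX3, and they overlapped for PLD6. The cardiolipin genes with the smallest p were PTPMT1, TRIAP1 and HADHA, with log2 fold changes of -0.23, 0.076 and 0.058 and no adjusted p under 0.5. PTPMT1 shares 26.3% of its exonic bases with a gene on the same strand and 51.3% with genes on the other.

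**Figure D4:**
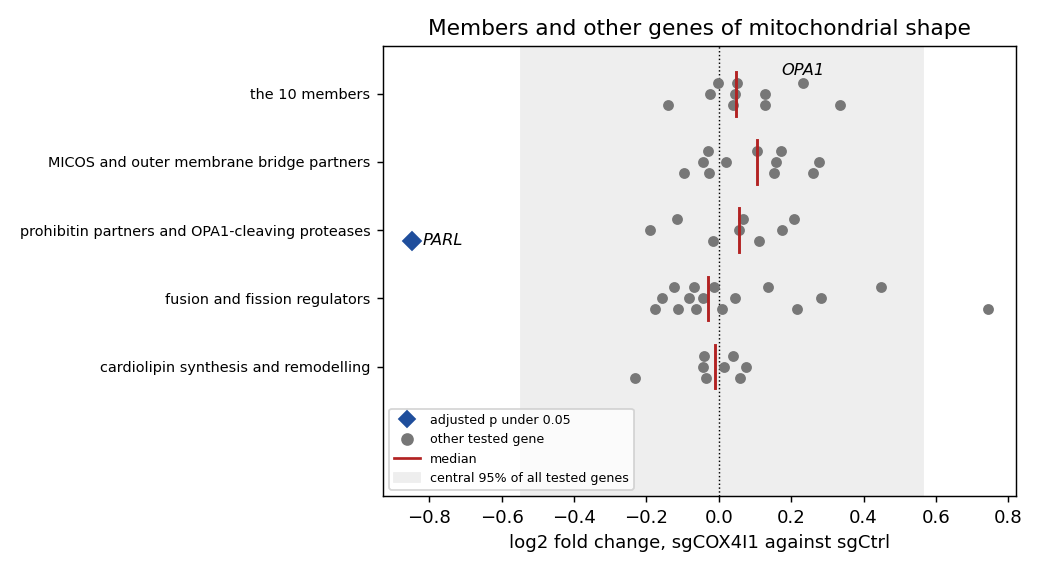
Log2 fold changes (horizontal axis) of the 10 members and of the tested genes of the 4 other lists, 1 point per gene, with red bars at the medians and a gray band for the central 95% of all tested genes. PARL at -0.85, the blue diamond, is the 1 gene with an adjusted p under 0.05, and the 10 members all lie within the band.

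**Figure D5:**
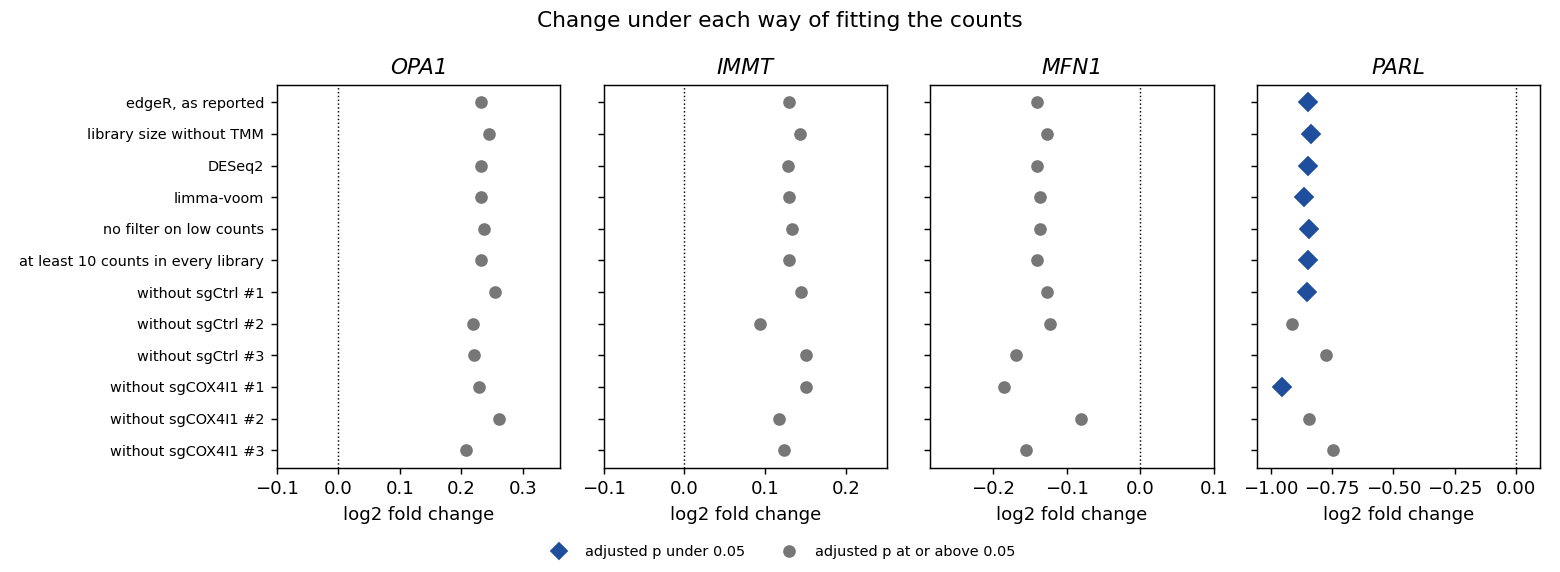
Log2 fold change of OPA1, IMMT, MFN1 and PARL (panels) with edgeR as reported, under other normalizations, filters and tools, and with each library left out; blue diamonds mark an adjusted p under 0.05. OPA1 stays between 0.21 and 0.26 with no diamond (the fit with a replicate block, not plotted, gives it an adjusted p of 0.0149 by edgeR), and PARL stays between -0.95 and -0.75 but loses its diamond without 4 of the 6 libraries.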

How the data were processed

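In all, 6 libraries of Molm13-Cas9 cells were compared, 3 sgCtrl and 3 sgCOX4I1. The authors deposited raw counts per gene symbol, with no normalization. The methods name Trimmomatic, Bowtie2 and RSEM, whereas the labels name STAR 2.6.0a on GRCh38 and the column names point to marked duplicates and HTSeq counts. The annotation release and the strand setting are not given in the sources used here. Columns were matched by letter (C, K) and guide number to the sample titles, and 0 columns were left unused. With R 4.3.3, edgeR 4.0.16 was run on all 6 libraries with TMM, its low-count filter and the quasi-likelihood test, and p-values were adjusted by Benjamini-Hochberg over 11861 genes at a threshold of 0.05. DESeq2 1.42.0, limma-voom (limma 3.58.1), library size without TMM, no filter, at least 10 counts in every library, a replicate block and each library left out were alternatives. Log2 values per library used a prior count of 2, and levels per kilobase used GENCODE 44 exons.

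The scripts' tests were first checked on simulated counts. The members and lists were chosen with earlier results of these data known. The genes named are the members, COX4I1, in each other list those with an adjusted p under 0.05 or else the 3 with the smallest p, and the 3 genes most correlated with OPA1, and OMA1, YME1L1, PHB, STOML2, MAP6D1, LYZ, MPO, FLT3 and HOXA9 were added after their values were seen. The motifs were chosen after the values were seen. Promoter sequences are from RefSeq, in which all 10 members were matched. Replicates differed by more than sampling noise (chi-square divided by its degrees of freedom, 11.0 to 27.6 between pairs), so each counted as 1 library. A count of 0 allows up to 0.0972 to 0.174 CPM, from counting error only.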

Additional observations from a re-analysis of the deposited data

How the results depend on the processing

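The sample titles do not say whether equal library numbers pair the samples, and the values do not settle it. Deviations of equal numbers from their group means correlated at 0.382, -0.0244 and 0.294. Those of #1 with #3 across the groups correlated at -0.384 and -0.324, and not every library correlated best with its own number. With the replicate block OPA1 had an adjusted p of 0.0149 from edgeR at a log2 fold change of 0.23, which made 1 member called, 4 other pathway genes were called, COX4I1 was at -1.39, and 1408 genes were called over the whole table. The last count was 247 as reported, 466 with DESeq2, 537 without a filter on low counts and between 24 (without sgCtrl #2) and 561 (without sgCtrl #1) with 1 library left out. It was 51 without sgCOX4I1 #2 and 89 without sgCOX4I1 #3. No member was called by the other 11 alternatives, with the adjusted p of OPA1 up to 0.353, and between 6 and 9 members were above 0. The other pathway genes called ran from 0 to 2 with 1 library left out. COX4I1 passed the threshold with the block, in limma-voom (-1.40), without a filter (-1.20) and without sgCtrl #1, sgCtrl #3 or sgCOX4I1 #2, and ran from -1.89 to -0.95 with 1 library left out.

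Of the small changes, that of MFF turned above 0 with library size alone (0.013), limma-voom (0.0069), no filter (0.0034) and the replicate block (0.0033) and ran from -0.053 to 0.099 with 1 library left out. In the same way MFN2 ran from -0.0059 to 0.12, DNM1L from -0.051 to 0.0015, FIS1 from -0.0018 to 0.11 and OMA1 from -0.010 to 0.25. With 1 library left out, CHCHD6 ran from 0.15 to 0.57, CHCHD3 from 0.060 to 0.18, MFN1 from -0.19 to -0.081, PHB2 from 0.011 to 0.071, CHCHD10 from 0.17 to 0.35, MICOS13 from 0.022 to 0.27, PHB from 0.018 to 0.11, YME1L1 from 0.038 to 0.11, PTPMT1 from -0.34 to -0.093, TRIAP1 from 0.042 to 0.11 and HADHA from 0.015 to 0.13. The directions of OPA1, IMMT, MFN1, CHCHD3, CHCHD6 and PHB2 were the same under all 12 alternatives.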
